A study of Mus musculus with 6 samples.

Results

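A set of 9 transcription repressors of the BTB and PR domain families were followed in mouse plasma cells and B cells, namely Prdm1, Bcl6, Bach1, Bach2, Zbtb20, Zbtb32, Zbtb7a, Patz1 and Bcl6b. The members were every probe set whose annotated gene symbol was 1 of these 9 names, which gave 25 probe sets of 45037 tested on the array and 9 genes of 18193. The plasma cells came from bone marrow, were gated as B220 negative and CD138 positive, and were taken 7 days after a boost with the protein antigen KLH (keyhole limpet hemocyanin). The B cells came from spleen, were gated as B220 positive and CD23 positive, and are called naive in the study's design. All mice were of strain C57BL/6, each group had 3 arrays, and each array took 50000 to 70000 plasma cells or 2000000 to 3000000 B cells. Tissue, boost, bead enrichment on CD138 and input went with the cell type, so their effects cannot be told apart. The animals' age and sex, the number of animals per array and the priming schedule are not given in the sources used here.

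Prdm1 encodes Blimp-1, a PR domain zinc finger repressor that ends the B cell programme and is needed for antibody secretion. Bcl6 and Bach2, which carry a BTB domain that mediates dimerisation and corepressor binding, hold B cells in the pre-secretory state, in part by repressing Prdm1, and Blimp-1 in turn represses Bcl6. The BTB domain is joined to zinc fingers in Bcl6, Bcl6b, Patz1 and the Zbtb proteins, and to a basic leucine zipper in Bach1 and Bach2.

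The 3 genes of that circuit had RefSeq start-site windows (build GRCm38.p6, 250 bases before to 50 after a start, given 5′ to 3′ on the strand of the gene), and these are shown because the 3 proteins are held to act on each other's genes. Capitals mark matches, on either strand, to AGNGAAAG, a short form of the Blimp-1 site, to TTCCTNGAA, that of Bcl6, or to TGAGTCA, that of Bach proteins. The Prdm1 window is chr10:44458699-44458998 on the minus strand. The Bcl6 windows are chr16:23988803-23989102 and chr16:23981234-23981533, both minus. The Bach2 window is chr4:32417185-32417484, plus.
Prdm1: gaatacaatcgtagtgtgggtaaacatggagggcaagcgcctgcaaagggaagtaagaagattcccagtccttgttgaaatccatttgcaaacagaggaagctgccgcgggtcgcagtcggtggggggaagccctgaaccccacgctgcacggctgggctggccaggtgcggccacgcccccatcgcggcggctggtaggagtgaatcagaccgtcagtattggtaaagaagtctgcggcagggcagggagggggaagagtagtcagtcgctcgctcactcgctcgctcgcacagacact
Bcl6, window starting at 23988803: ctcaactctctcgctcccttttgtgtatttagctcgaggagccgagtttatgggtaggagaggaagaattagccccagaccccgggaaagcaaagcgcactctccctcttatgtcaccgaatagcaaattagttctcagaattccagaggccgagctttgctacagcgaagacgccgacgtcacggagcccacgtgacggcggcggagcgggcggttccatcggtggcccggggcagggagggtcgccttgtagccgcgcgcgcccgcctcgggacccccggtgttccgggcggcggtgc
Bcl6, window starting at 23981234: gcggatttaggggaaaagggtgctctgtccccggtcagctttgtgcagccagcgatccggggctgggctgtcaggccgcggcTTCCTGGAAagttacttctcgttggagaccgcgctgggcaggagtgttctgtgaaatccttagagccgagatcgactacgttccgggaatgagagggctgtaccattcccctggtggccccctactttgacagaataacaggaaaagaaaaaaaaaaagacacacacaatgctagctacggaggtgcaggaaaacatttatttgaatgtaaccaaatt
Bach2: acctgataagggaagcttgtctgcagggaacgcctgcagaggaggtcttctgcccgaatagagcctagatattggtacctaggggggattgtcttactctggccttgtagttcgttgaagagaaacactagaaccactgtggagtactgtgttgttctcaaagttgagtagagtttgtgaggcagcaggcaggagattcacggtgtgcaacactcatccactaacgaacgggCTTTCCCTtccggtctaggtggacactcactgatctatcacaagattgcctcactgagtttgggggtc
In all, 8 of the 9 genes matched the RefSeq table, with 11 windows. The Bcl6 window starting at 23981234 held TTCCTGGAA, beginning at position -168 from the start, and 1.59% of all 32851 windows held that motif. The Bach2 window held CTTTCCCT, the reverse complement of a Blimp-1 match, at position -18, against 8.63% of all windows. Neither the Prdm1 window nor the other Bcl6 window held a match, and TGAGTCA, in 5.2% of all windows, was in none of the 11. A match or its absence describes these letters and says nothing of binding.

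The sort markers followed the gates. Sdc1, which encodes CD138, averaged 12911 ± 282 in plasma cells, against 1072 ± 107 in B cells, and Fcer2a, which encodes CD23, 48.1 ± 4.0 in plasma cells, against 6032 ± 868 in B cells (intensity, SD, n = 3 arrays each). Ptprc, whose B220 isoform served in both gates, averaged 4236 ± 60.7 in plasma cells, against 9453 ± 133 in B cells. All 6 measured plasma cell markers were higher and all 7 measured follicular B cell markers lower in plasma cells. B cell array 1 stood apart. Its log2 values correlated with those of B cell arrays 2 and 3 at 0.933 and 0.926, against 0.992 between these 2 and 0.985 to 0.989 among plasma cell arrays, across probe sets, which are not replicates. The summed intensity of 8 T and NK cell markers was 1212 to 1866 on plasma cell arrays, 4834 on B cell array 1 and 387 and 460.2 on the other B cell arrays, and 6 of the 8 were at least 2-fold higher on B cell array 1 than on the mean of the others. The 7 granulocyte markers summed to 8433 to 19932 on plasma cell arrays, 12502 on B cell array 1 and 2765 and 1774 on the others. The X-inactivation transcript Xist averaged 8339 ± 326 on the plasma cell arrays. Its B cell values were 8408 for array 1, but 30.8 and 18.1 for arrays 2 and 3. The part of other cells or of sex in the member values was not tested. Results are therefore also given without B cell array 1, where sex and cell type can then not be told apart.

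Values are intensities on the authors' linear scale, and fold changes are on log2(intensity + 16), plasma cells over B cells, with the standard error (SE) of the fit. A probe set was called where limma's Benjamini-Hochberg adjusted p over all 45037 probe sets was below 0.05. Of the 25 member probe sets 11 were called higher, 7 lower and 7 neither. Over all probe sets 13.4% were called higher and 12.8% lower, 26.2% in either direction. The groups did not overlap on 20 of the 25, against 45.4% of all probe sets. The probe sets are not independent, since 9 of them measure Zbtb20. At gene level, taking the brightest probe set, Prdm1, Zbtb20 and Bcl6b rose and Bcl6, Bach2, Patz1 and Zbtb32 fell. Bach1 and Zbtb7a were not called. Over all genes 16.6% rose and 11.4% fell, 28% in either direction, so 7 of 9 is above that share, in genes picked with earlier results known.

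**Figure D1:**
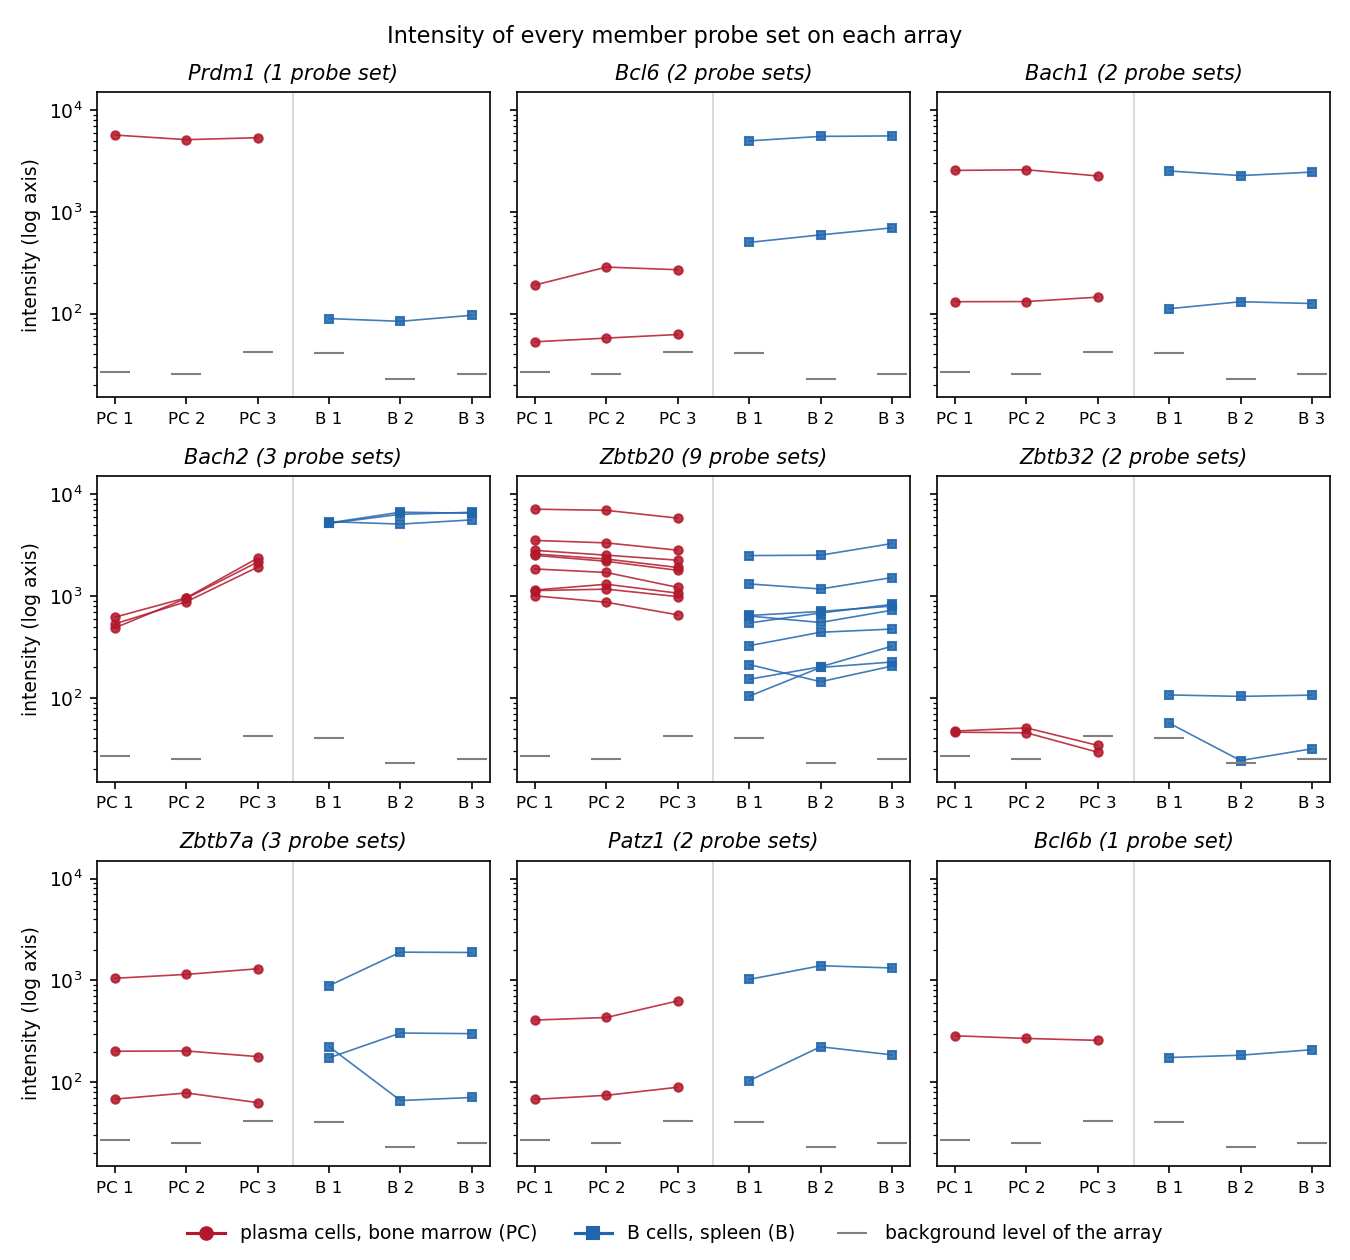
Intensity of each of the 25 probe sets on a log axis, by array, with plasma cell arrays (PC, red circles) left of B cell arrays (B, blue squares) and lines that join the values of 1 probe set within a group. Grey bars mark the background level of each array. Prdm1 lies at 5105 to 5669 on plasma cell arrays and at 83.9 to 96.3 on B cell arrays, and Bach2 spreads widely over the plasma cell arrays.

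Prdm1 had the largest change of the members. Its probe set 1420425_at read 5669, 5105 and 5338 on the plasma cell arrays, against 89.3, 83.9 and 96.3 on the B cell arrays. The groups lay far apart and each was tight, the highest array exceeding the lowest by 1.11-fold in plasma cells and 1.15-fold in B cells. The mean intensity was 59.8 times as high in plasma cells (log2 fold change 5.67 ± 0.13 SE, limma adjusted p = 3.51e-05). All 3 B cell values stood above the array's background level, which ran from 23.0 to 41.8 over the 6 arrays and was taken from bacterial control probe sets. Leaving out B cell array 1 gave 5.67, with adjusted p = 5.62e-05. In bulk RNA, fewer cells that carry a transcript and less of it in each cell cannot be told apart, here and for every member.

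Bcl6, the regulator of the germinal centre reaction and an antagonist of Prdm1, changed in the other direction. Probe set 1421818_at read 191, 286 and 269 in plasma cells, against 4968, 5497 and 5556 in B cells. Every plasma cell array was more than an order of magnitude below every B cell array (log2 fold change -4.36 ± 0.19, limma adjusted p = 7.97e-05). The dimmer probe set 1450381_a_at read 52.8, 57.4 and 62.3 in plasma cells, against 499.9, 593 and 694 in B cells, and fell by 3.05 ± 0.17 on the log2 scale (adjusted p = 0.000149). Both stayed over the background level on all arrays. In plasma cells 1450381_a_at lay below the median of each array (88.9 to 95.1), and whether its signal there is specific to Bcl6 was not tested. Without B cell array 1 the values were -4.41 (adjusted p = 0.00017) and -3.16 (adjusted p = 0.000131).

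Bach2, which delays plasma cell differentiation and favours class switching, fell too, but its plasma cell arrays differed widely. Probe set 1437667_a_at read 621, 963 and 2360.3 in plasma cells, against 5173, 6357 and 6648 in B cells. Probe set 1436515_at read 534, 879 and 1925 in plasma cells, against 5229, 6667 and 6506 in B cells. Plasma cell array 1 was the lowest and array 3 the highest of their group on all 3 Bach2 probe sets, yet each stayed below all B cell arrays. The log2 fold changes were -2.41 ± 0.48, -2.63 ± 0.45 and, for 1445460_at, -2.40 ± 0.51, with limma adjusted p of 0.0136, 0.00814 and 0.0178. Array 3 exceeded array 1 by 3.60-fold to 4.43-fold, while the B cell arrays differed by 1.29-fold at most. Without plasma cell array 3 the log2 fold changes were -2.94, -3.12 and -2.94. The calls of 1437667_a_at and 1445460_at did not survive the removal of plasma cell array 2 (adjusted p = 0.0578 and 0.067) and without B cell array 2 or 3 (0.0505 to 0.059), whereas 1436515_at kept its call in all 15 alternatives, with a highest adjusted p of 0.0386. All 3 kept it when B cell array 1 was left out (0.0133 to 0.0321).

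Transcripts of some other cell types, though not of all, also peaked on plasma cell array 3, those of B cell precursors among them. Of 7 markers of pro-B and pre-B cells, the marrow precursors that also carry Bach2, 6 were called higher in plasma cells than in B cells. The summed intensity of the list was 17805 to 28307 on plasma cell arrays and 3095 to 5522 on B cell arrays. Igll1 (8737, 8358 and 8367 on plasma cell arrays 1 to 3) and Cd93 (6883, 7077 and 6929) gave the larger part of each plasma cell sum. Both were called higher in plasma cells, but neither peaked on array 3. Igll1 also read 4090, 2893 and 2447 on B cell arrays 1 to 3, most of each B cell sum. Whether the Igll1 and Cd93 signals come from precursors was not tested, so the sums are not a measure of precursor RNA. No marker was at 0 on any array. The recombinase gene Rag1 read 815, 1075 and 2249.7 on plasma cell arrays 1 to 3, against 59.0, 35.6 and 37.0 in B cells. The surrogate light chain gene Vpreb1 read 411, 264 and 2008 in plasma cells, against 61.7, 102 and 67.7 in B cells. Dntt, the terminal transferase of precursors, read 3547, 413 and 5669 in plasma cells, against 28.7, 24.8 and 12.3 in B cells. All 3 genes peaked on plasma cell array 3, as Bach2 did, but Vpreb1 and Dntt were lowest on array 2, not array 1. Of the 7 markers 5 were at least 2-fold higher on array 3 than on the mean of arrays 1 and 2, which held for 368 of 18193 genes. Of 7 follicular B cell markers 0 were at least 2-fold higher on array 3. Among them, Fcer2a was at 52.0, 44.0 and 48.4 in plasma cells, and Cd22 at 150, 160 and 166. Other genes lower in plasma cells than in B cells did peak on array 3. Such were the Ets factor gene Spib (652, 1613 and 3848 on plasma cell arrays 1 to 3) and Klhl6 (508, 635 and 1607). Among the lists of other cells, 2 of 8 T and NK cell markers were at least 2-fold higher on array 3, and the list summed to 1212, 1264 and 1866 on plasma cell arrays 1 to 3, against 4834, 387 and 460.2 on B cell arrays 1 to 3. The same held for 1 of 8 plasmacytoid dendritic, 1 of 5 dendritic and 1 of 8 monocyte and macrophage markers, and for 0 of 7 granulocyte and 0 of 4 erythroid markers. The dendritic and progenitor gene Flt3 read 563, 260.1 and 860.5 in plasma cells, against 42.3, 89.1 and 85.1 in B cells. The part of RNA from precursors or other cells in the Bach2 values was not tested.

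**Figure D2:**
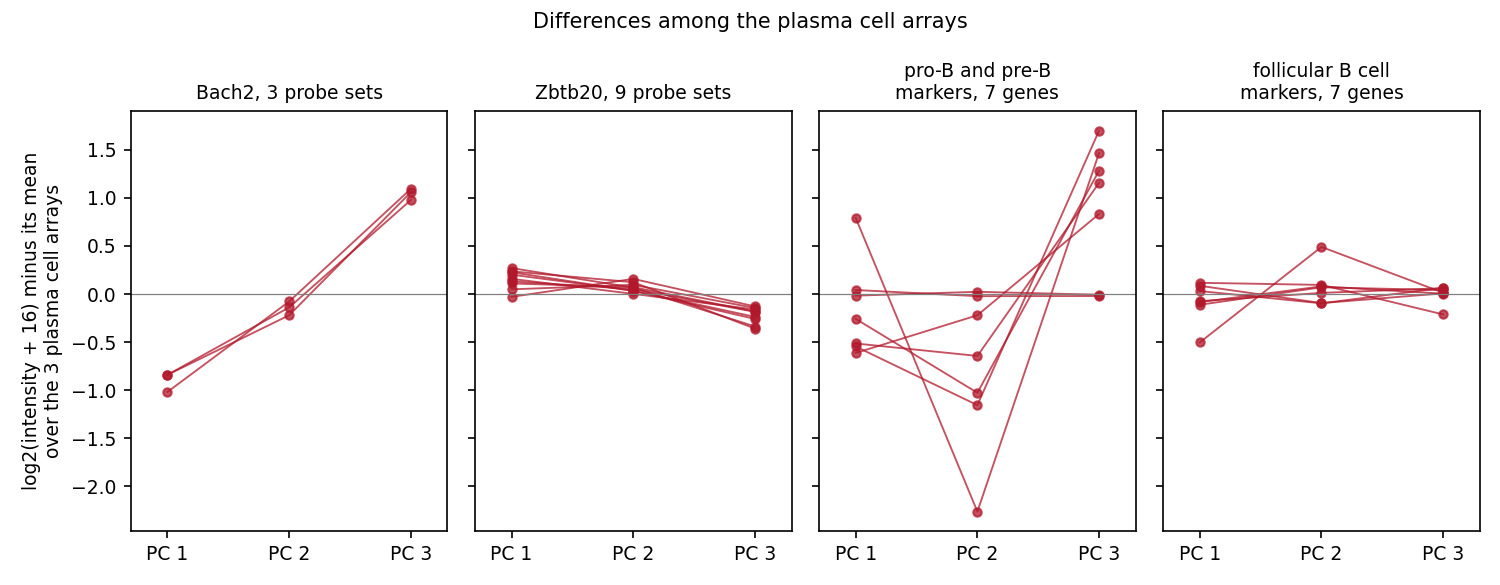
Log2(intensity + 16) on each of the 3 plasma cell arrays (PC) minus its mean over them, 1 line per probe set or gene, for Bach2, Zbtb20, and the pro-B and pre-B and follicular B cell marker lists. Bach2 and 5 of 7 pro-B and pre-B markers stand highest on array 3, Zbtb20 is lowest there, and no follicular B cell marker is 2-fold higher there.

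Bach1, the paralogue of Bach2 and a haem-sensing repressor of antioxidant genes, showed no such difference. Probe set 1440831_at read 2547, 2584 and 2247 in plasma cells, against 2513, 2266 and 2451 in B cells. The groups overlapped, and the log2 fold change was 0.03 ± 0.13 (95% interval -0.30 to 0.35, limma adjusted p = 0.899). The dimmer 1449311_at read 131, 131 and 145 in plasma cells, against 112, 131 and 126 in B cells (0.13, interval -0.19 to 0.45, adjusted p = 0.514). It counts among the probe sets without overlap, but barely, at 130.83 on plasma cell array 1 against 130.74 on B cell array 2. With B cell array 1 left out the values were 0.06 and 0.07, again without a call. Whether the changes of Bach1 and Bach2 differ was not tested.

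Zbtb20, a BTB zinc finger factor that in mice supports the lifespan of plasma cells, rose on all 9 of its probe sets. The brightest, 1438443_at, read 7133, 6945 and 5823 in plasma cells, against 2499, 2519 and 3278 in B cells (log2 fold change 1.26 ± 0.17, limma adjusted p = 0.00347). The lowest plasma cell array was well above the highest B cell array, and the same held for the other 8. Probe set 1451577_at, with the largest change, read 1131, 1169 and 987 in plasma cells, against 104, 199 and 225 in B cells (2.59 ± 0.29, adjusted p = 0.00153). The log2 fold changes of the 9 ran from 1.26 to 2.59, so the size of the rise depended on the probe set more than the direction did. The 9 are repeated views of 1 gene in the same RNA, not 9 findings. Plasma cell array 3 was the lowest of its group on all 9 probe sets, at 0.651 to 0.932 times array 1. B cell array 3 was the highest of its group on 8 of 9. Every call held in every alternative fit, with a highest adjusted p of 0.0349, and without B cell array 1 the range was 1.20 to 2.65.

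**Figure D3:**
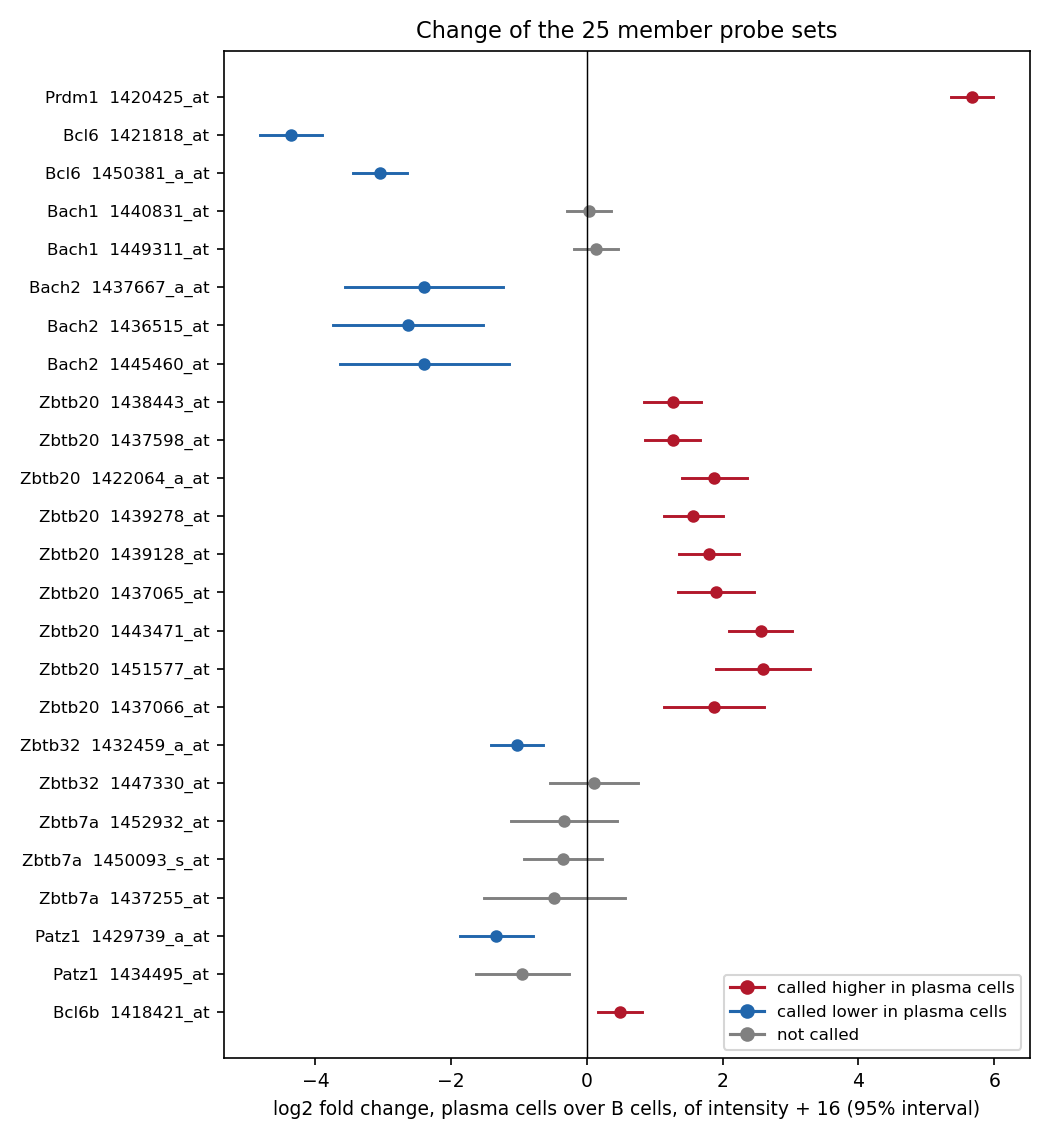
Log2 fold change of each member probe set, plasma cells over B cells, on the log2(intensity + 16) scale, with 95% intervals from limma. Red marks probe sets called higher in plasma cells, blue lower and grey neither. The 9 Zbtb20 probe sets lie between 1.26 and 2.59, and the Bach2 intervals are the widest of the called ones.

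Zbtb32, which in mice restrains recall responses of memory B cells, was dim in both groups. Probe set 1432459_a_at read 47.2, 50.7 and 34.1 in plasma cells, against 107, 103 and 106 in B cells. The groups were separate, but plasma cell array 3 lay within its background level of 41.8, so the value there is only an upper bound and the fold depends on the added constant (log2 fold change -1.03 ± 0.16, limma adjusted p = 0.00505). The other probe set, 1447330_at, read 46.0, 45.4 and 29.2 in plasma cells, against 56.5, 24.3 and 31.6 in B cells, with overlap and no call (0.10, interval -0.54 to 0.75, adjusted p = 0.808). With both averaged the call was lost (-0.46, adjusted p = 0.117). The first probe set, with B cell array 1 left out, was at -1.02 with adjusted p = 0.00601.

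Patz1, a BTB zinc finger protein also known as MAZR and studied in CD8 lineage choice of T cells, fell on 1 probe set. Probe set 1429739_a_at read 408, 432 and 628 in plasma cells, against 1022, 1392 and 1323 in B cells (log2 fold change -1.33 ± 0.22, limma adjusted p = 0.00721). Its groups were separate, with plasma cell array 3 the nearest to the B cells. Probe set 1434495_at read 67.8, 74.3 and 89.2 in plasma cells, against 103, 223 and 186 in B cells. These groups were separate too, but B cell array 1 was far below the other B cell arrays, and the value missed the threshold (-0.95 ± 0.28, adjusted p = 0.0543). Without that array it was -1.24 and was called (adjusted p = 0.00279), and the brighter probe set was at -1.47 (adjusted p = 0.00489).

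Zbtb7a, also called LRF, which in mice acts in the B against T lineage choice, turned on B cell array 1. Probe set 1452932_at read 1049, 1144 and 1299.7 in plasma cells, against 887, 1893 and 1877 in B cells. B cell array 1 lay below all plasma cell arrays and the other B cell arrays above them, so the groups overlapped (log2 fold change -0.34 ± 0.32, limma adjusted p = 0.491). Without B cell array 1 it was -0.69 and called lower (adjusted p = 0.011), as was 1450093_s_at (-0.60, adjusted p = 0.0101). The dimmest, 1437255_at, ran the other way on that array, at 68.2, 78.4 and 63.0 in plasma cells, against 223, 66.0 and 70.8 in B cells, and had no call with or without it (-0.48 and 0.02). A fall of Zbtb7a thus appears on 2 of 3 probe sets only where B cell array 1 is left out or, by array weights, counts for little (weight 0.105). The mean of the 3 probe sets was called lower with all arrays (-0.39, adjusted p = 0.0437).

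Bcl6b, the closest relative of Bcl6, rose slightly on its single probe set. It read 286, 269 and 257 in plasma cells, against 175, 184 and 208 in B cells. The groups did not overlap, and the log2 fold change was 0.49 ± 0.13 (95% interval 0.16 to 0.81, limma adjusted p = 0.0438). This call was the least stable of the members: it was lost in 10 of 16 alternatives, among them median centring (adjusted p = 0.155) and the fits without any 1 array other than B cell array 1 (0.0672 to 0.159). It was 0.43 with B cell array 1 left out (adjusted p = 0.0316). The direction was the same in all 16.

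The rest of both families was read against all 18193 genes, of which 16.6% rose and 11.4% fell. Of 39 other measured BTB zinc finger genes, taken by their brightest probe set, 4 rose and 9 fell, with a median log2 fold change of -0.25. The median over all genes was -0.06. The 13 calls among 39 stand beside 28% called in either direction over all genes, so the pooled number is near the general share. The directions differ, since more of the 39 fell than rose, while over all genes more rose than fell. Zbtb42 rose most, averaging 1115 ± 14.98 in plasma cells, against 202 ± 70.1 in B cells (2.43 ± 0.26, limma adjusted p = 0.00141). Zbtb38, a factor that binds methylated DNA, averaged 4394 ± 184 in plasma cells, against 1948 ± 216 in B cells (1.17, adjusted p = 0.00219). Zbtb8b was called higher (adjusted p = 0.0259) but exceeded background on 2 plasma cell arrays and no B cell array, so no size is given. Zbtb8a, the fourth, rose by 0.54. Zbtb10 (-1.80), Zbtb18 (-1.69) and Zbtb37 (-1.19, over background on 2 plasma cell arrays) fell most. The count of lower genes was 2 after median centring, 16 without B cell array 1 and 21 with array weights, and between 4 and 5 without any other single array. Of 11 other measured PRDM genes 0 rose and 2 fell, Prdm11 (-1.30, adjusted p = 0.0321) and Prdm6 (adjusted p = 0.0408). Prdm6 was over background on 1 plasma cell array, so its size is not measured. The number of lower PRDM genes was 0 after median centring, after quantile normalization and without any single one of the other 5 arrays, and 4 without B cell array 1, so the count of 2 is not firm.

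**Figure D4:**
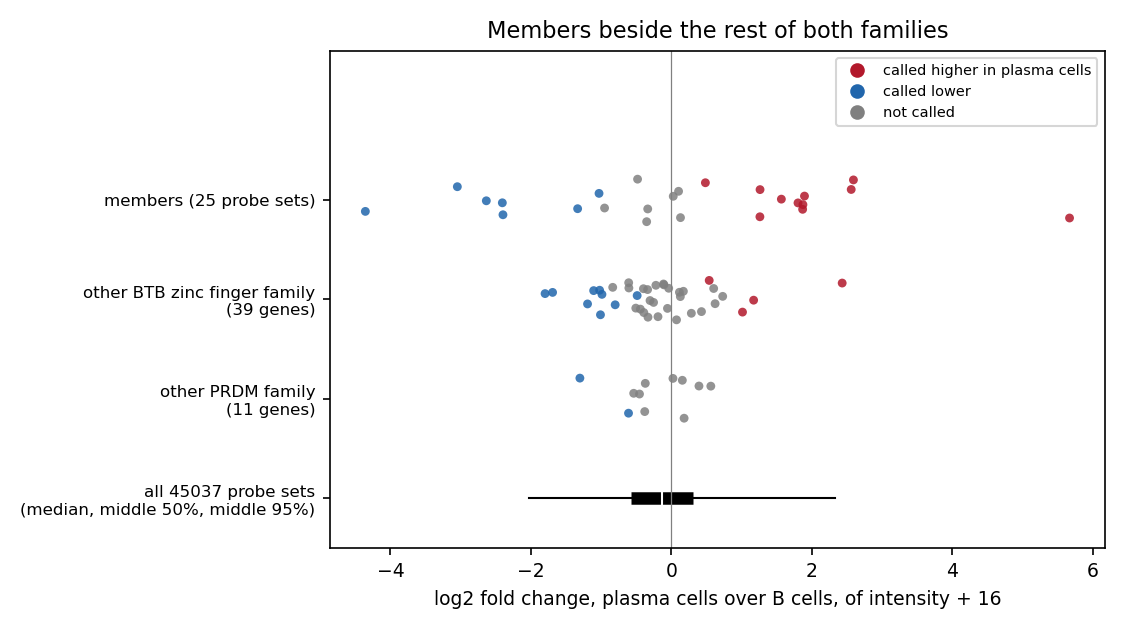
Log2 fold change, plasma cells over B cells, on the log2(intensity + 16) scale for the 25 member probe sets, 39 other BTB zinc finger genes and 11 other PRDM genes, with vertical scatter for legibility. Red marks calls higher in plasma cells, blue lower and grey none. The bar for all 45037 probe sets shows the median (-0.13), the middle 50% (-0.57 to 0.30) and the middle 95% (-2.02 to 2.33), and Prdm1, both Bcl6, all 3 Bach2 and 2 of the 9 Zbtb20 probe sets lie outside the last.

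Genes that these repressors are known to act on were read by lists, each beside the same shares over all genes, 16.6% higher and 11.4% lower. The lists share genes with the cell type markers, so their counts are not separate from cell identity. Pax5 and Ciita are also follicular B cell markers, and Xbp1 and Irf4 plasma cell markers. Of 6 measured genes repressed by Blimp-1, 5 fell and 0 rose, with a median log2 fold change of -4.16. Bcl6 is 1 of the 5. Ciita, the transactivator of MHC class II genes, averaged 28.9 ± 2.6 in plasma cells, against 3905 ± 836 in B cells (-6.43, limma adjusted p = 4.42e-05, over background on 2 plasma cell arrays), and the E protein inhibitor Id3 fell by 4.69 ± 0.58 (adjusted p = 0.0024). Pax5, the B cell identity factor, read 26.7, 31.8 and 29.4 in plasma cells, against 565, 628 and 928 in B cells. It was called lower, but only 1 plasma cell array exceeded background, so its size is not measured. The list's median lies midway between Pax5 and the member Bcl6. It is therefore approximate and not separate from the Bcl6 result given above. Spib, an Ets factor, read 652, 1613 and 3848 in plasma cells, against 10424, 11279 and 12180.1 in B cells. Like Bach2, it was lowest on plasma cell array 1 and highest on array 3. Myc, a growth regulator, was not called (-0.38, adjusted p = 0.11). Of 5 genes listed as induced by Blimp-1, 4 rose, with log2 fold changes of 3.69 for the stress sensor Ern1, 2.85 for its target Xbp1, 2.45 for the elongation factor Ell2 and 1.60 for Atf6. The other member, Sesn3, an inhibitor of mTORC1 signalling whose place in this list is uncertain, fell by 2.77 (502 ± 58.0 in plasma cells, against 3509 ± 103 in B cells).

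Of 13 measured genes described as repressed by Bcl6, 5 rose and 1 fell, with a median of -0.16. Prdm1 is 1 of the 5. The checkpoint kinase gene Chek1 averaged 564 ± 76.6 in plasma cells, against 74.7 ± 18.3 in B cells (2.69 ± 0.21, limma adjusted p = 0.000425), and the cyclin gene Ccnd2 rose by 2.44 ± 0.22 (adjusted p = 0.000723). Cd44 (1.60) and Irf4 (1.12) rose as well. Gpr183, the oxysterol receptor EBI2, fell (-2.46, adjusted p = 0.000157). The number of lower genes in this list was 3 without B cell array 1 and 3 without plasma cell array 3, while the 5 higher stayed 5 when any single array was left out. Among 10 measured Bcl6 corepressor genes 0 rose and 2 fell, Mta3, a subunit of the NuRD complex (259 ± 103 in plasma cells, against 1628 ± 196 in B cells, -2.64, adjusted p = 0.00172), and Sin3a (-1.09, adjusted p = 0.00896). That number is close to the share over all genes, and it was 4 without B cell array 1.

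For the Bach proteins, 6 binding partners and competitors were measured, of which 1 rose and 2 fell. Mafk, a small Maf protein that dimerises with both Bach proteins, averaged 726 ± 110 in plasma cells, against 1277 ± 185 in B cells (-0.80 ± 0.18, limma adjusted p = 0.0216). Nfe2l2, which encodes Nrf2 and competes with Bach1 for the same sites, fell by 0.49 (adjusted p = 0.037), and the related Nfe2l1 rose by 0.72 (adjusted p = 0.0247). These counts are not firm: median centring gave 0 in either direction, and leaving out single arrays gave 0 to 1 higher and 0 to 3 lower. Of 8 measured targets of Bach1, 1 rose and 0 fell. It was Hmox1, the haem oxygenase, at 420, 466 and 479 in plasma cells, against 91.1, 72.8 and 59.3 in B cells (2.39 ± 0.17, adjusted p = 0.000346), while Bach1 itself was not called. There were 4 higher targets when B cell array 1 was left out.

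The genes with the profile nearest to a member were found by the root mean square (RMS) difference of mean-centred log2(intensity + 16) over the 6 arrays, a description without a test. For Prdm1 these were Wipi1, an autophagy protein (RMS 0.0954), Tmem176a (0.121) and Smarcb1 probe set 1456938_at (0.125). The other 2 Smarcb1 probe sets did not share that profile, with 1 called lower and 1 not called, so the gene as a whole does not resemble Prdm1. For Bcl6 they were Prkab2, a subunit of AMP-activated kinase (0.104), the complement regulator Cd55 probe set 1418762_at (0.121) and the kinase Srpk3 (0.144). The other 2 Cd55 probe sets were called lower too. The brightest of the gene averaged 2712 in plasma cells, against 7096 in B cells. Its log2 fold change was -1.37, against -4.36 for Bcl6 1421818_at, so the likeness does not extend to Cd55 as a whole. For Bach2 the nearest were Klhl6, an adaptor of germinal centre B cells (0.108), Oasl1 (0.115) and S100a6 (0.194). Klhl6 read 508, 635 and 1607 in plasma cells, against 4033, 4915 and 4954 in B cells, thus with the same order of plasma cell arrays as Bach2.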

How the data were processed

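Expression was measured on 1-colour Affymetrix arrays, 3 of bone marrow plasma cells and 3 of spleen B cells, grouped by their titles. Per the labels' protocols, RNA was extracted with a column kit, amplified with NuGEN Ovation V2 and labelled with biotin. The deposited values are linear intensities, 1 per probe set and array; background correction, summarisation and normalization are not given in the sources used here. Upper quartiles ran from 625 to 684 over the 6 arrays, while medians were 86.7 to 95.1 on 5 arrays and 130.0 on B cell array 1, so the low range of that array differs.

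Of 45101 probe sets, 64 controls were left out. Symbols come from the platform annotation of 2016 (34945 probe sets with 1 symbol, 932 with several, 9160 with none here), and 34741 were matched to the RefSeq gene table by Entrez identifier; no probe set of several symbols is named. All 45037 probe sets were fitted with limma 3.58.1 (lmFit, eBayes) in R 4.3.3 on log2(intensity + 16), a constant that shrinks the folds of dim genes, with Benjamini-Hochberg adjustment and a threshold of 0.05. The background level of an array is the 95th percentile of 27 bacterial control probe sets. Lists used each gene's brightest probe set, by mean log2 value, and are described by counts and medians, without a set test. Named genes were all members, up to 3 called genes per direction of a list, and the sort markers. The 3 nearest profiles of Prdm1, Bcl6 and Bach2 were named too. Xist, Rag1, Vpreb1, Dntt, Igll1, Cd93, Cd22, Flt3, Zbtb8a, Myc, Cd44, Irf4, Pax5, Spib and Atf6 were chosen after their values were seen.

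The members and lists were chosen with earlier results of these data known. Whether the arrays of a group stem from different mice is not given, so the p-values cover only variation among these arrays, possibly technical, and 3 arrays a group limit the precision. The alternatives were other pseudocounts, centring, quantile normalization, a filter on dim probe sets, array weights, a trended robust prior, a replicate block, each array left out, and other choices of probe set.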

Additional observations from a re-analysis of the deposited data

How the results depend on the processing

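Over 390 alternative fits of the 25 member probe sets, 365 kept the direction where called and the side of the threshold, 17 lost the call and 8 gained one. The call of Bcl6b (0.49) was lost with a pseudocount of 1 (log2 fold change 0.52), median centring (0.60), quantile normalization (0.60), a trended robust prior (0.49) and the replicate block (0.49, adjusted p = 0.129), and leaving out single arrays gave 0.43 to 0.55. The call of Bach2 1437667_a_at was lost without 3 of the 6 arrays in turn, with -2.94 to -1.99 over all 6. Zbtb32 lost its call with the mean of its probe sets (-0.46). Zbtb7a 1452932_at gained one with array weights (-0.71), with the mean of its probe sets (-0.39) and without B cell array 1, with -0.69 to -0.15 over the 6 arrays left out. The cause was not tested. Median centring added 0.117 to every log2 fold change. Member probe sets called numbered 10 to 11 higher and 5 to 10 lower over the arrays left out. Over all probe sets the main counts were 6036 higher and 5761 lower; array weights gave 9645 and 11396, median centring 3521 lower, and leaving out single arrays 4012 to 8155 higher and 3236 to 9331 lower. With the replicate block, 10 member probe sets were called higher and 7 lower, and 4516 and 4140 over all; same-numbered arrays correlated by 0.0495, 0.00316 and 0.0529 in their deviations from group means, so the numbers were not taken as pairs, and no member other than Bcl6b changed its call. Zbtb32, near background, is the member most limited by signal.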
